A study of Mus musculus with 4 samples.

Results

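The Notch receptors, ligands and targets described here are 10 of the 55488 genes in the count matrices: the 4 receptors Notch1 to Notch4, the 4 ligands Jag1, Jag2, Dll1 and Dll4, and the 2 target genes Hes1 and Hey1. They were taken by symbol, and each symbol has 1 entry. Notch is a signal between touching cells, in which a ligand on the sender pulls on a receptor of its neighbour. The receptor is then cut, and its inner part enters the nucleus, where it binds RBPJ and switches on genes of the Hes and Hey families. In the liver the pathway is best known for bile duct formation and for the identity of arterial and sinusoidal vessels, and receptors or ligands are also known from stellate cells and from cells of the blood lineage.

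The data are single-cell 3' RNA counts (10x Genomics, unique molecular identifiers, UMIs) from primary liver cells of untreated mice. Hepatocytes (HC) and non-parenchymal cells were isolated separately and mixed before loading. There are 4 libraries from 4 genotypes with 1 mouse each, so no replicates: wildtype (WT), YAP knockout (YAPKO), TAZ knockout (TAZKO) and the double knockout (DKO). In the knockouts a Cre under the albumin promoter (Alb-Cre) removes floxed Yap1, floxed Wwtr1 (the gene of TAZ) or both in HC and in biliary epithelial cells (BEC), while the other cells keep intact alleles. The age of these 4 mice is not given in the sources used here. Values for the 4 libraries stand throughout in the order WT, YAPKO, TAZKO and DKO, and values against WT in the order YAPKO, TAZKO and DKO.

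After keeping barcodes with 500 to 6000 genes and at most 10% mitochondrial UMIs, the libraries held 7155, 6275, 8638 and 8294 cells with a median of 4618, 7337, 3555.5 and 5952.5 UMIs. YAPKO and DKO are the deeper libraries, so depth and the YAP genotype cannot be told apart. Pairs of libraries share 9 to 26 kept barcodes. In HC, Yap1 stood at 21.4, 4.74, 47.0 and 4.50 UMIs per 1e+06 UMIs of the same cells (CPM), and its log2 ratio to WT was -2.17 in YAPKO and -2.25 in DKO. In the same cells Wwtr1 stood at 5.12, 13.2, 2.48 and 2.31 CPM, with a log2 ratio of -1.05 in TAZKO and -1.15 in DKO. Both labelled deletions are thus visible in HC, although a tag at the 3' end still counts RNA made from an allele after recombination. Endothelial cells (EC), which the Cre spares, held Yap1 at 39.0, 40.1, 60.7 and 41.8 CPM and Wwtr1 at 152, 165, 153 and 175 CPM, without that loss. BEC, which the Cre is to reach, held Yap1 at 39.3, 13.4, 56.7 and 12.7 CPM. They held Wwtr1 at 68.7, 57.9, 63.4 and 25.4 CPM, from 42, 26, 19 and 2 UMIs. Wwtr1 in BEC of TAZKO was thus near its WT level. BEC also held RNA of EC, given below, and EC of TAZKO held Wwtr1 at 153 CPM. What part this RNA has in the BEC level was not tested, so these counts cannot show whether Wwtr1 was lost in BEC of TAZKO.

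Cell types were set from clusters and marker genes, and neither the 10 genes nor the rest of the pathway took part in the clustering. The 4 libraries gave 2197, 1215, 3054 and 3036 HC and 1848, 1245, 1638 and 1230 EC. There were 60, 71, 49 and 51 EC of large vessels, 245, 120, 164 and 125 hepatic stellate cells (HSC) and 54, 32, 28 and 7 BEC, so BEC values in DKO rest on 7 cells. Kupffer cells (KC) numbered 601, 565, 1116 and 632, monocytes or macrophages (MAC) 123, 436, 110 and 476, conventional dendritic cells (cDC) 89, 182, 112 and 239, and plasmacytoid dendritic cells (pDC) 77, 147, 185 and 304. The HSC class is mixed, and its make-up differs between libraries. A subcluster high in EC genes held 104, 48, 34 and 30 of the HSC, or 42.4, 40, 20.7 and 24%, with the EC list at 13824 CPM and the HSC list at 5018.5 CPM. Another, with KC and neutrophil genes among its most typical genes, held 22, 26, 35 and 39 HSC, or 8.98, 21.7, 21.3 and 31.2%. A subcluster led by HSC genes, with the HSC list at 17361.5 CPM, held 64, 30, 46 and 38. The large-vessel EC also held RNA of other types, with the EC list at 8647.8, the HSC list at 1529.3 and the HC list at 4948.5 CPM. In periportal EC, a zone described below, these were 14466.3, 98 and 1828.2 CPM. What part this has in the levels of large-vessel EC was not tested. HC fell in a shallow cluster with 1823, 558, 2007 and 1947 cells, a deep cluster with 365, 560, 1046 and 936 cells and a small cluster with 9, 97, 1 and 153. The shallow cluster held most HC in WT, TAZKO and DKO, and in YAPKO the deep cluster held 560 cells and the shallow cluster 558. Clusters that a limit chosen after seeing the data kept without a name held 8.47, 9.35, 7.15 and 8.10% of the kept cells.

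The 10 genes were found over a wide range of counts. Kept cells held 22427 UMIs of Notch1, 9465 of Notch2, 252 of Notch3 and 2857 of Notch4. For the ligands there were 1997 UMIs of Jag1, 75 of Jag2, 1121 of Dll1 and 4884 of Dll4, and for the targets 23009 of Hes1 and 478 of Hey1. Counts of different genes are not compared with each other below, and each gene is followed across cell types and libraries. The orders of types leave out libraries with fewer than 20 cells of a type, so BEC enter without DKO. All intervals are exact 95% intervals and cover counting error only.

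**Figure D1:**
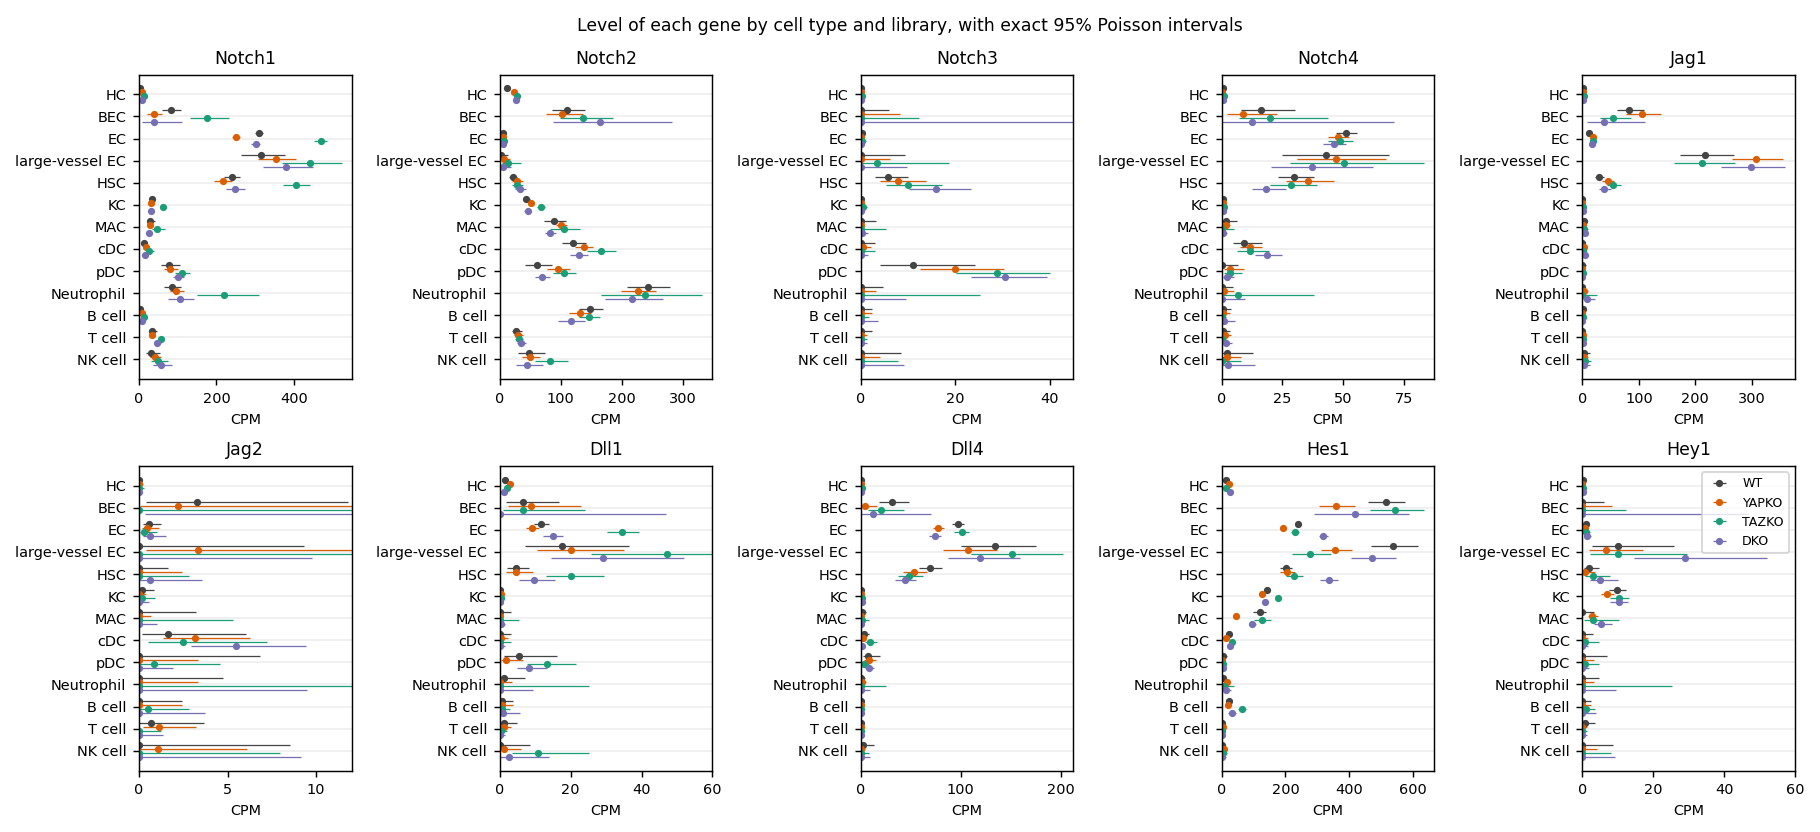
Level of each of the 10 genes (CPM) by cell type, with 1 point per library and its counting interval. Some intervals of Notch3, Jag2, Dll1 and Hey1 run past the edge of the axis.

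RefSeq promoter sequences (build GRCm38.p6, 250 bases before to 50 bases after the start of a transcript) were at hand for 8 of the 10 genes, in 9 sequences of 300 bases, and Hes1 and Hey1 had no entry. They were searched on both strands for the letters TGGGAA, the core of the site of RBPJ, and for GGAATG, the core of the site of the TEAD factors that YAP and TAZ bind. The RBPJ letters occur in 25.6% of all 32851 promoters in that table and in 0 of the 8 genes. The TEAD letters occur in 14.7% of all promoters and in 2 of the 8 genes, Notch1 and Notch4, whose promoters are shown because they are the 2 with a match. The Notch1 sequence lies at chr2:26503773-26504072 (minus strand), inside the gene as annotated in GRCm38 and not at its outer end, and has 2 matches. The Notch4 sequence lies at chr17:34564045-34564344 (plus strand) and has 1 match. Capitals mark the match, which reads CATTCC in these sequences because it lies on the other strand, and a match of letters does not show that a factor binds there.
Notch1: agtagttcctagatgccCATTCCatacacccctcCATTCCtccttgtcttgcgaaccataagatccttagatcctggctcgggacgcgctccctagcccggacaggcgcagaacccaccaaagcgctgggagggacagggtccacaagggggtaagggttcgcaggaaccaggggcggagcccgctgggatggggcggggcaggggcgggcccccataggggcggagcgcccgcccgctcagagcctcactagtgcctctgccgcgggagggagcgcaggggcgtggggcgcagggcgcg
Notch4: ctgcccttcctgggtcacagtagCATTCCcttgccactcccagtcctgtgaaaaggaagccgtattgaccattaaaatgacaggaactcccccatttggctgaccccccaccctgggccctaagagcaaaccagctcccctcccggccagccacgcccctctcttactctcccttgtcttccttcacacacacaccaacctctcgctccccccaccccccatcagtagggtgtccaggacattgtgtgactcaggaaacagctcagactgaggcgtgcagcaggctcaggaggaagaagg

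Notch1, the receptor that T cells and growing arteries depend on, was highest in the cells of vessels and in stellate cells. In EC it stood at 309, 251, 468 and 301 CPM. In large-vessel EC it stood at 316, 354, 440.2 and 381 CPM, and in HSC at 240.3, 216, 405 and 248 CPM. These 3 types overlap in the spread over libraries, and so do the next in the order: neutrophils at 85.2, 96.8, 219 and 106, BEC at 81.8, 37.9, 177 and 38.0 and pDC at 77.8, 81.0, 111 and 102 CPM. There followed NK cells, T cells, KC, MAC and cDC, which overlap as neighbours. NK cells lie clear of pDC but overlap with BEC, and B cells and HC lie below a gap. HSC and BEC also held RNA of EC, and their Notch1 levels in cells low in that RNA, given below, are lower in every library. KC, the resident macrophages, held 33.2, 32.3, 61.0 and 31.2 CPM. HC held 2.96, 7.84, 12.9 and 6.81 CPM, with 56, 134, 182 and 215 UMIs. Across 51 points of cell type and library, the genes most like Notch1 were Pcnx (r = 0.912), Nr3c1 (r = 0.903) and Klf7 (r = 0.903), among 8322 genes. For this and every such r below, the points share libraries, depth and free RNA.

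TAZKO was the library with the most Notch1 in nearly every cell type. It had the highest level in 11 of the 12 types with at least 20 cells in all 4 libraries, and 5.56% of 14706 genes reached that number. In MAC from clusters at a resolution of 0.8 the log2 ratios to WT were -0.58, -0.69 and -1.14, so TAZKO was below WT there. Without the correction by library, an EC cluster held 1859, 1315, 66 and 1171 cells and another 127, 50, 1823 and 99, so EC of TAZKO stood apart. HC split by library as well, with clusters of 5, 4, 2379 and 0 cells, of 1814, 54, 2 and 0 cells and of 0, 8, 1 and 879 cells. What part these splits have in the Notch1 levels, or in the HC ratios of the other genes, was not tested. In EC the log2 ratio to WT was -0.30 (-0.38 to -0.23), 0.60 (0.53 to 0.67) and -0.04 (-0.12 to 0.04). YAPKO was thus below WT, TAZKO above it, and the DKO interval included 0. The median of all genes in EC lay at 0.03, 0.17 and 0.04 on the same scale, so relative to it Notch1 was at -0.33, 0.43 and -0.08. In HSC the ratio was -0.16 (-0.36 to 0.04), 0.75 (0.58 to 0.93) and 0.05 (-0.14 to 0.24), or -0.19, 0.56 and -0.01 relative to the median of all genes. In KC it was -0.04 (-0.30 to 0.22), 0.88 (0.63 to 1.12) and -0.09 (-0.37 to 0.19), or 0.02, 0.63 and -0.12 relative to that median. EC, HSC and KC carry intact Yap1 and Wwtr1 alleles in all 4 mice.

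In HC the Notch1 ratio was 1.41 (0.95 to 1.88), 2.12 (1.69 to 2.58) and 1.20 (0.77 to 1.65), all 3 above WT. Here the median of all genes is itself shifted, by 0.43, 0.63 and 0.47, and relative to it Notch1 lay at 0.97, 1.495 and 0.74. With limits of 500 to 6000 UMIs in place of genes, the DKO ratio was 0.12, and with cells selected by markers the TAZKO ratio was 3.30 and the DKO ratio 0.47. RNA of EC was present beside this result: all 8 genes of the EC marker list were detected in HC of every library. Their summed level was 50.8, 61.2, 134 and 53.9 CPM, with Clec4g 15.2, Clec4g 14.1, Ptprb 29.9 and Ptprb 12.7 CPM as the most abundant genes and 0 markers at 0. The list was highest in TAZKO, as was Notch1, and its part in the result was not tested. In HC with at most 0.1% of UMIs from that list, a limit chosen after seeing the data, the ratios were 1.34, 1.82 and 1.12.

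Shares of cells with a Notch1 UMI give the same picture for EC when depth is equalised. With each cell thinned to 1000 UMIs, 25.7, 21.8, 38.1 and 26.3% of EC had a UMI, against 0.468, 1.15, 0.867 and 0.896% of B cells, the comparison type. Without thinning the shares were 76.7, 82.2, 81.0 and 79.8% of EC and 1.41, 2.31, 4.32 and 2.38% of B cells, at median depths of 5491.5, 7844, 4036.5 and 5767.5 UMIs in EC and 2944, 2868, 2840 and 2185.5 in B cells. In EC the unthinned share is highest in YAPKO, the deepest library, and the thinned share in TAZKO. Other immune cells also had their highest Notch1 in TAZKO: in neutrophils the TAZKO ratio was 1.36 (0.70 to 1.99), and in T cells 0.69 (0.24 to 1.17). Those were 0.92 and 0.49 relative to the medians of all genes.

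Notch2, the receptor tied to bile duct formation and to marginal zone B cells and dendritic cells, had a different place in the order. Neutrophils were highest, at 243, 227, 239 and 216 CPM, and stood clear of the next type. There followed, as overlapping neighbours, cDC, B cells, BEC, MAC, pDC, NK cells and KC. In cDC the level was 121, 137, 166 and 130.001 CPM. In B cells it was 148, 131, 146 and 116 CPM, and in BEC 109.6, 103, 137 and 165 CPM. Neutrophils, cDC and B cells thus lead, and after a gap T cells, HSC, HC, large-vessel EC and EC close the order. EC held 4.64, 5.50, 6.82 and 5.57 CPM, near the bottom, where Notch1 is near the top. Most like Notch2 across types were B9d2 (r = 0.862), Ttc7 (r = 0.852) and Fgd3 (r = 0.844).

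In HC, the cells with the deletion, Notch2 was above WT in all 3 knockout libraries. Levels were 11.99, 22.9, 27.6 and 26.8 CPM and the log2 ratios 0.94 (0.70 to 1.18), 1.21 (0.97 to 1.45) and 1.16 (0.95 to 1.38). Relative to the shifted median of all genes these are 0.50, 0.58 and 0.69, smaller but still above it. The size of the TAZKO ratio depends on the choices made: it was 2.33 with limits of 500 to 6000 UMIs, 2.49 with cells selected by markers, 2.03 with the mean over cells and 0.96 with mitochondrial and the 50 most abundant genes left out of the scaling. In neutrophils, where Notch2 is highest, the ratios were -0.10 (-0.38 to 0.18), -0.02 (-0.59 to 0.50) and -0.16 (-0.55 to 0.21), and each interval included 0. KC held 43.6, 50.9, 68.1 and 45.6 CPM with ratios of 0.22 (0.01 to 0.44), 0.64 (0.42 to 0.86) and 0.07 (-0.17 to 0.30). That order of libraries does not hold in KC under each alternative: with limits of 500 to 6000 UMIs the TAZKO ratio was 1.18 and the DKO ratio 1.21. With cells selected by markers the KC ratios were -0.08, 0.33 and -0.44. In cDC the ratios were 0.19 (-0.10 to 0.48), 0.46 (0.14 to 0.78) and 0.11 (-0.18 to 0.40). In pDC they were 0.64 (0.07 to 1.26), 0.79 (0.23 to 1.39) and 0.18 (-0.38 to 0.78), from 61.2, 95.6, 106 and 69.3 CPM.

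Notch3, the receptor of mural cells around vessels, was rare, and its UMIs lay mainly in 2 types. In pDC it was at 11.1, 20.03, 28.9 and 30.5 CPM, from 6, 22, 35 and 59 UMIs. In HSC, the pericytes of the liver, it was at 5.80, 7.87, 10.0 and 15.9 CPM, from 13, 12, 13 and 25 UMIs. The 2 types overlap, and they stand clear of the rest. B cells, BEC, NK cells, neutrophils and T cells held 0 UMIs in every library, so their levels lie below the limit of 3 UMIs. WT was the lowest library in both types. In pDC the log2 ratio was 0.85 (-0.50 to 2.44), 1.38 (0.11 to 2.92) and 1.46 (0.25 to 2.96), or 0.82, 1.35 and 1.42 relative to the median of all genes. In HSC it was 0.44 (-0.82 to 1.69), 0.79 (-0.44 to 2.02) and 1.45 (0.43 to 2.54), and the YAPKO value turned to -0.15 with the mean over cells (log2 ratio of Notch3, HSC, YAPKO against WT).

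RNA of other cells was present in pDC as well. The 8 EC genes were all detected there and summed to 397, 522, 437 and 397 CPM (Cdh5 126, Cdh5 156, Cdh5 111 and Cdh5 126 CPM as the most abundant, 0 markers at 0), and their part in the Notch3 level was not tested. In pDC with at most 0.1% of UMIs from that list, Notch3 was at 9.84, 19.5, 29.5 and 31.4 CPM. The share of pDC with a Notch3 UMI, thinned to 1000 UMIs, was 2.60, 4.08, 3.24 and 2.63%, and 7.79, 13.6, 17.3 and 15.5% without thinning, at a median depth of 6715, 6762, 6107 and 5519 UMIs. In B cells, at a median depth of 2944, 2868, 2840 and 2185.5 UMIs, the share was 0% on both measures. The genes most like Notch3 were Siglech (r = 0.911), Klk1 (r = 0.891) and Pdzd4 (r = 0.867), of which Siglech and Klk1 are on the pDC marker list.

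Notch4, a receptor known from endothelium, had its highest levels in EC, at 51.2, 47.9, 48.6 and 46.1 CPM, and in large-vessel EC, at 42.9, 46.8, 50.4 and 37.0 CPM. These 2 overlap and stand clear of the rest. HSC, BEC and cDC follow as overlapping neighbours, and the other types lie below a gap. HSC held 29.9, 35.4, 28.5 and 18.4 CPM, and the few HSC low in RNA of EC, given below, held no UMI of Notch4. In EC the log2 ratios were -0.10 (-0.28 to 0.08), -0.07 (-0.27 to 0.12) and -0.15 (-0.35 to 0.05), so each interval included 0. In HSC they were 0.25 (-0.30 to 0.78), -0.07 (-0.69 to 0.53) and -0.70 (-1.38 to -0.05), and the TAZKO value turned to 0.21 with the mean over cells (log2 ratio of Notch4, HSC, TAZKO against WT). The EC list in HSC was also lower than WT in DKO, and its part in the Notch4 ratio was not tested. In the HSC subcluster high in EC genes Notch4 was at 37.2 CPM in WT and 31.7 CPM in DKO. In the one led by HSC genes it was at 28.8 and 26.5 CPM, and in the one with KC genes at 13.8 and 8.82 CPM. The genes most like Notch4, Adam23 (r = 0.965), Mmrn2 (r = 0.964) and Tek (r = 0.963), include Tek, the angiopoietin receptor of endothelium.

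Among the cDC, Notch4 lay in the cells with markers of the cross-presenting type. The cDC were divided after seeing the data into cells with UMIs of Xcr1 or Clec9a only (43, 63, 45 and 72 cells) and cells with UMIs of Cd209a or Clec10a only (32, 86, 44 and 111 cells), leaving aside cells with both or neither. In the Xcr1 or Clec9a cells Notch4 stood at 12.6, 25.4, 22.8 and 40.1 CPM. In the Cd209a or Clec10a cells it stood at 2.64, 0.993, 0 and 2.17 CPM, from 4 UMIs in 273 cells against 88 UMIs in 223 cells. In every library the first group was higher. The EC list in cDC was detected with 8 of 8 genes and summed to 378, 301, 441 and 221 CPM (Clec4g 103, Clec4g 94.0, Ptprb 115 and Ptprb 72.0 CPM as the most abundant, 0 markers at 0), and its part was not tested. In cDC with at most 0.1% of UMIs from that list, Notch4 was at 9.22, 9.46, 13.3 and 15.7 CPM. The log2 ratio of Notch4 in all cDC was 0.33 (-0.71 to 1.48), 0.33 (-0.92 to 1.61) and 1.02 (0.05 to 2.13).

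**Figure D2:**
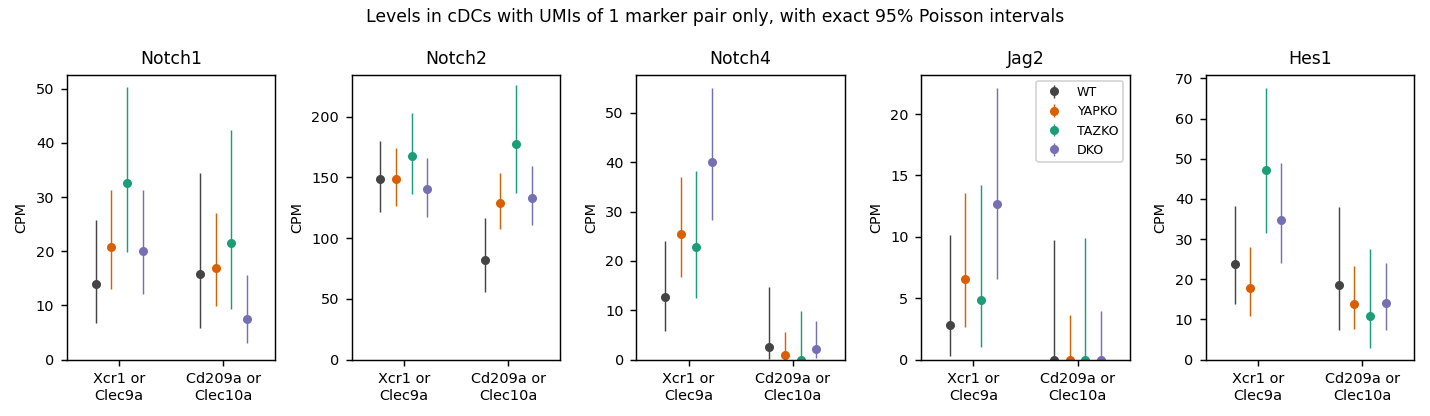
Levels of Notch1, Notch2, Notch4, Jag2 and Hes1 in cDC with UMIs of Xcr1 or Clec9a only and of Cd209a or Clec10a only, by library. Bars are counting intervals.

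Among the ligands, Jag1, the ligand whose loss in people impairs bile duct formation, was highest in large-vessel EC, at 217, 308, 212 and 299 CPM. That stands clear of the next types, BEC at 83.4, 105, 53.4 and 38.0 CPM and HSC at 29.9, 44.6, 54.7 and 38.7 CPM, which overlap. EC follow, clear of both sides, at 12.2, 18.7, 19.2 and 17.1 CPM, and the other types are lower and overlap as neighbours. Large-vessel EC, BEC and HSC thus all hold more Jag1 than EC, in every library. KC held 0, 0, 4 and 3 UMIs of Jag1, so WT and YAPKO are below the limit of 3 UMIs. The genes most like Jag1 were Adgrg6 (r = 0.933), Syt7 (r = 0.926) and Bcam (r = 0.924), of which Adgrg6 and Bcam are on the lists of EC subsets.

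In EC all 3 knockout libraries had more Jag1 than WT, with log2 ratios of 0.62 (0.29 to 0.95), 0.65 (0.29 to 1.02) and 0.49 (0.13 to 0.85). Relative to the median of all genes these are 0.59, 0.48 and 0.45. With limits of 500 to 6000 UMIs the YAPKO ratio turned to -0.17 and the TAZKO ratio was 0.06. In periportal EC, a zone described below, the ratios were 0.61 (0.14 to 1.09), 0.81 (0.32 to 1.31) and 0.65 (0.14 to 1.16). In pericentral EC they were 0.33 (-0.28 to 0.96), 0.41 (-0.30 to 1.12) and -0.08 (-0.77 to 0.60), each with an interval that included 0. In HSC the ratios were 0.58 (0.07 to 1.09), 0.87 (0.37 to 1.38) and 0.38 (-0.15 to 0.90), and the DKO interval included 0. In the HSC subcluster with KC genes YAPKO was lower than WT, at 38.6, 24.3, 50.2 and 42.6 CPM from 14, 9, 22 and 29 UMIs. In large-vessel EC the ratios were 0.50 (0.13 to 0.89) in YAPKO and 0.46 (0.04 to 0.88) in DKO. TAZKO, with 49 large-vessel EC, had fewer than the 50 cells set as the limit. In HC, Jag1 was at 0.634, 1.17, 2.13 and 1.11 CPM from 12, 20, 30 and 35 UMIs. The HC ratios were 0.89 (-0.22 to 2.05), 1.75 (0.74 to 2.85) and 0.81 (-0.17 to 1.89), or 0.45, 1.12 and 0.34 relative to the median of all genes. With the mean over cells the TAZKO ratio in HC was 3.93.

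Jag2, another ligand of the Serrate type, was the rarest of the 10. Among types and libraries with at least 20 cells, its highest mean was in cDC, at 1.67, 3.19, 2.47 and 5.50 CPM from 2, 8, 3 and 13 UMIs, and all types overlap with a neighbour. BEC held 2, 1, 0 and 1 UMIs, the last in 7 cells at 12.7 CPM, which that limit leaves out. In EC it was at 0.580, 0.482, 0.284 and 0.648 CPM, and HC, MAC and neutrophils held 0 UMIs in every library, below the limit of 3 UMIs. Within the cDC, the Xcr1 or Clec9a cells held Jag2 at 2.81, 6.59, 4.88 and 12.7 CPM, 24 UMIs in all. The Cd209a or Clec10a cells held 0 UMIs, with an upper interval limit of 1.38 CPM over the 4 libraries. The 2 groups of cDC thus differ in Jag2 as they do in Notch4. Jag2 had too few UMIs for ratios to WT and for a search of like genes.

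Dll1, a Delta-type ligand needed for marginal zone B cells, was highest in large-vessel EC, at 17.7, 20.1, 47.0 and 29.1 CPM, and in EC, at 11.7, 9.07, 34.5 and 14.9 CPM. HSC held 4.46, 4.59, 20.04 and 9.53 CPM. TAZKO was the highest library in each of these 3 types. From large-vessel EC down to HC, through EC, HSC, BEC, pDC and NK cells, all neighbours overlap. B cells, next after HC, do not overlap with HC, while NK cells, from 0 to 10.8 CPM, overlap with all lower types. In EC the log2 ratio was -0.37 (-0.77 to 0.03), 1.56 (1.24 to 1.89) and 0.35 (-0.03 to 0.73), or -0.40, 1.39 and 0.31 relative to the median of all genes. TAZKO thus had more Dll1 than each other library, and the YAPKO and DKO intervals included 0. With limits of 500 to 6000 UMIs the YAPKO ratio in EC turned to 0.11. Without the correction by library the EC of TAZKO stood apart, as given for Notch1. What part this has in the Dll1 ratio was not tested. In HSC the ratio was 2.17 (1.07 to 3.39) in TAZKO and 1.10 (-0.16 to 2.41) in DKO. YAPKO had too few UMIs. In HC, where Dll1 was at 1.53, 2.81, 1.98 and 1.33 CPM, the ratios were 0.88 (0.18 to 1.59), 0.37 (-0.43 to 1.17) and -0.20 (-0.92 to 0.53), with the highest value in YAPKO. These move with the choice of cells, to 1.81, 1.67 and -1.33 with limits of 500 to 6000 UMIs, and with cells selected by markers to 1.54 in TAZKO and -2.34 in DKO. By the same measure Zfp697 (r = 0.889), E030026E10Rik (r = 0.885) and Stox2 (r = 0.877) came closest to Dll1.

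Dll4, the Delta-type ligand that shapes sprouting vessels and arteries, was highest in large-vessel EC, at 134, 107, 151 and 119 CPM. EC were next, at 97.1, 77.7, 101 and 74.0 CPM, and HSC next, at 69.1, 53.1, 48.6 and 43.8 CPM. These steps do not overlap over the 4 libraries, and neither do HSC and BEC. The HSC class also holds RNA of EC, and in the few HSC low in that RNA, given below, Dll4 had few or no UMIs. From BEC down the neighbours overlap, and B cells had 0 UMIs in every library, below the limit of 3 UMIs. In EC the log2 ratio was -0.32 (-0.46 to -0.19), 0.05 (-0.09 to 0.19) and -0.39 (-0.54 to -0.24), so YAPKO and DKO were below WT, and the small TAZKO value turned to -0.02 with the mean over cells (log2 ratio of Dll4, EC, TAZKO against WT). With limits of 500 to 6000 UMIs the YAPKO ratio was -0.02. By zone of the EC, in periportal EC, where Dll4 is higher, the ratios were -0.19 (-0.39 to 0.01), 0.27 (0.07 to 0.47) and -0.11 (-0.33 to 0.11), so the YAPKO and DKO intervals included 0. In pericentral EC they were -0.42 (-0.69 to -0.16), -0.06 (-0.35 to 0.24) and -0.53 (-0.82 to -0.25), and the difference between the zones was not tested. In HSC the ratio was -0.38 (-0.79 to 0.02), -0.51 (-0.96 to -0.08) and -0.66 (-1.09 to -0.24). The EC list, at 9476, 9845, 7204 and 7149 CPM in HSC, was also lower than WT in TAZKO and DKO, and its part in the Dll4 ratios was not tested. The genes most like Dll4 were Fgd5 (r = 0.982), Gm43508 (r = 0.980) and Emcn (r = 0.978), of which Emcn, endomucin, is an endothelial surface protein.

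The shares of EC with a Dll4 UMI, thinned to 1000 UMIs, were 9.96, 6.59, 8.06 and 6.10%, with 0 of 427, 433, 577 and 335 B cells. Without thinning they were 38.0, 43.1, 30.9 and 34.2%, highest in YAPKO, where the thinned share is below that of WT. In HC the Dll4 ratio in TAZKO was 1.35 (0.17 to 2.62), from 10, 11, 19 and 8 UMIs. That direction turned in 6 alternatives, among them the HC with at most 0.1% of UMIs from the EC list, where the TAZKO value was 0.218 CPM from 3 UMIs and the ratio -1.28.

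Hes1, a repressor that is the classical target of Notch, was present in epithelium, endothelium and macrophages. BEC held 515, 359, 544 and 418 CPM. Large-vessel EC held 538, 356, 276 and 470.4 CPM and EC 241, 193, 229.6 and 319 CPM. HSC held 202, 205, 227 and 335 CPM, and these 4 types overlap as neighbours. KC came next, clear of both sides, at 143, 128, 177 and 135 CPM, then MAC at 119, 44.0, 126 and 96.8 CPM. MAC, B cells, cDC, HC, neutrophils, pDC, NK cells and T cells overlap as neighbours. HC held 15.5, 22.2, 14.3 and 25.7 CPM, and the BEC, which share the Cre, thus hold far more Hes1 than HC in every library. The genes most like Hes1 were Trim47 (r = 0.939), Smagp (r = 0.928) and Sash1 (r = 0.924).

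Hes1 in EC had log2 ratios of -0.32 (-0.40 to -0.23), -0.07 (-0.16 to 0.02) and 0.41 (0.33 to 0.49). YAPKO was below WT and DKO above it, so the 2 libraries without YAP in HC lie on opposite sides of WT. In HSC the ratio was 0.02 (-0.19 to 0.23), 0.16 (-0.05 to 0.38) and 0.73 (0.54 to 0.91), with DKO highest, in a class whose make-up differs between libraries. The small YAPKO value turned to -0.01 when mitochondrial and the 50 most abundant genes were left out of the scaling (log2 ratio of Hes1, HSC, YAPKO against WT). In MAC the ratios were -1.44 (-1.75 to -1.12) in YAPKO, 0.09 (-0.32 to 0.48) in TAZKO and -0.30 in DKO, where the interval runs from -0.59 to -0.000502 and so barely leaves out 0. With clusters at a resolution of 0.8 the TAZKO value turned to -0.45 (log2 ratio of Hes1, MAC, TAZKO against WT). YAPKO stands apart in MAC at 44.0 CPM, and its MAC numbered 436 cells against 123 in WT. In MAC with at most 0.1% of UMIs from the EC list the YAPKO ratio was -1.38.

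In KC the Hes1 ratios were -0.16 (-0.29 to -0.04), 0.31 (0.18 to 0.43) and -0.09 (-0.22 to 0.05), or -0.10, 0.05 and -0.12 relative to the median of all genes, and the DKO value turned to 0.14 with the mean over cells (log2 ratio of Hes1, KC, DKO against WT). With limits of 500 to 6000 UMIs the KC ratio was 1.00 in TAZKO and 0.87 in DKO. In HC the ratios were 0.52 (0.30 to 0.74), -0.11 (-0.38 to 0.15) and 0.73 (0.54 to 0.93). Relative to the shifted median of all genes in HC, they were 0.09, -0.74 and 0.26, so the TAZKO value lay below the median and the other 2 near it or above it. With cells selected by markers the HC ratio turned to -0.81 in YAPKO and -0.71 in DKO. In B cells TAZKO was highest, at 21.8, 19.6, 63.2 and 31.3 CPM, with a ratio of 1.53 (0.97 to 2.13).

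Thinned to 1000 UMIs, 19.3, 16.2, 18.3 and 25.6% of EC and 12.5, 11.5, 14.7 and 11.6% of KC had a Hes1 UMI. In B cells, the comparison type, the shares were 2.11, 1.15, 7.11 and 2.99%. Without thinning they were 53.0, 59.7, 49.0 and 70.2% of EC, 53.9, 67.1, 46.8 and 57.1% of KC and 6.09, 5.54, 15.2 and 6.85% of B cells. The median depth of KC was 10829, 16963, 4893 and 10115 UMIs, and the depths of EC and B cells are given above. DKO is the highest library in EC on both measures. In B cells TAZKO is the highest on both.

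Hey1, a target of Notch in developing arteries, was rare and had its highest levels in large-vessel EC and KC. Large-vessel EC held 10.1, 6.69, 10.1 and 29.1 CPM, from 4, 4, 3 and 11 UMIs. KC held 9.71, 6.92, 10.2 and 10.2 CPM, from 65, 63, 62 and 65 UMIs. The 2 types overlap and stand clear of MAC, HSC and EC, which follow, and BEC, NK cells and neutrophils held 0 UMIs in every library, below the limit of 3 UMIs. In KC the log2 ratios were -0.49 (-1.01 to 0.03), 0.07 (-0.45 to 0.60) and 0.07 (-0.45 to 0.59), each with an interval that included 0. With cells selected by markers the KC ratios of Hey1 were 0.77, 0.88 and 0.69, so the YAPKO direction turned. EC held 0.967, 0.772, 1.14 and 1.295 CPM. For Hey1 the closest genes were Nuak1 (r = 0.865), Cmklr1 (r = 0.823) and Chp2 (r = 0.808).

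**Figure D3:**
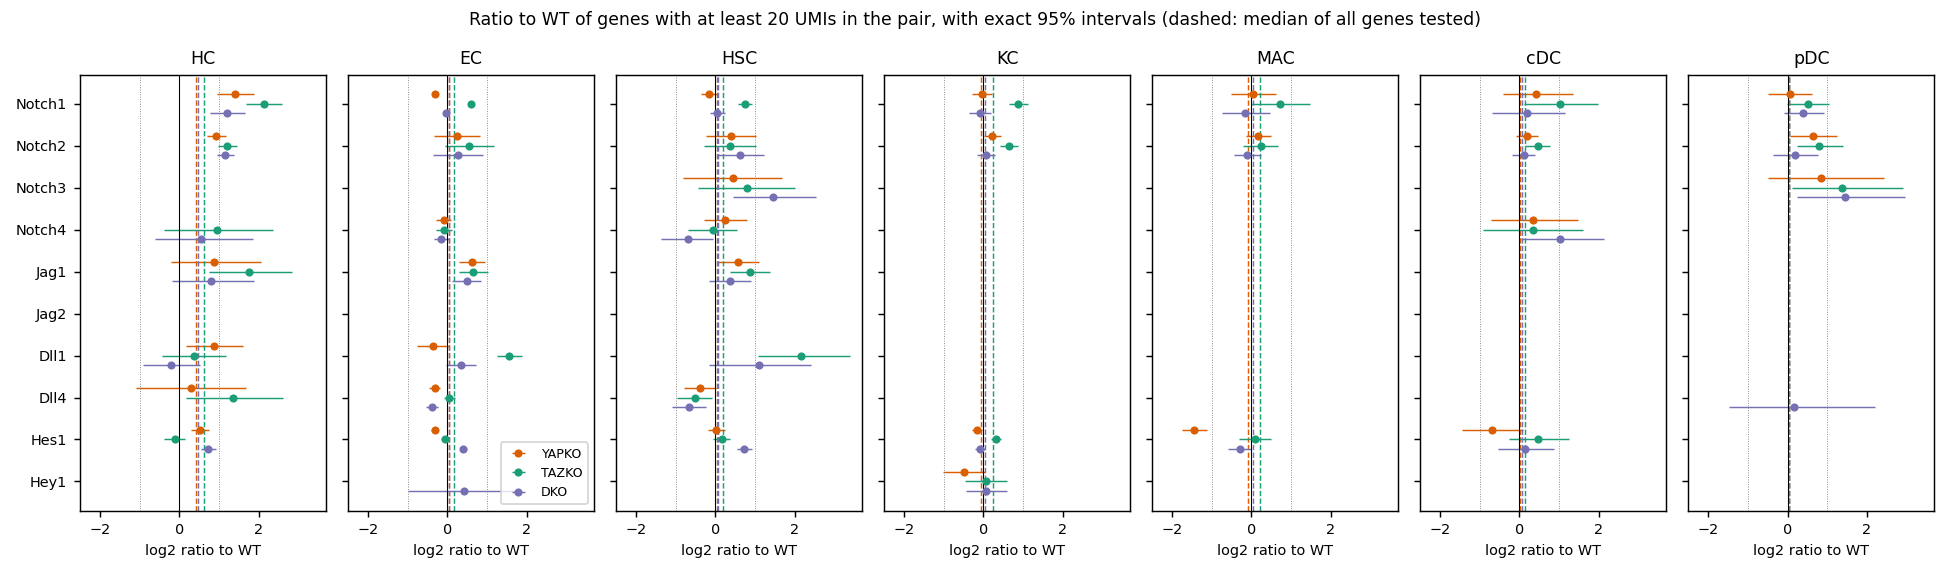
Log2 ratio of each gene to WT by cell type and knockout library, with counting intervals. The median of all genes in the same cells is drawn beside them.

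RNA typical of EC was found in the other cell types, and it moves with several of the genes above. In EC the 8 genes of the EC list summed to 15527, 15075, 14299 and 14410.1 CPM, with Clec4g 4250.2, Clec4g 4036, Ptprb 3813 and Ptprb 3831 CPM as the most abundant. In HSC all 8 were detected, 0 were at 0, and the sum was 9476, 9845, 7204 and 7149 CPM, with Clec4g 2576, Clec4g 2719, Ptprb 1950.4 and Ptprb 2207 CPM as the most abundant. In BEC all 8 were detected as well, at 5054, 1143, 4521 and 2827 CPM, with Clec4g 1429, Ptprb 263, Ptprb 1161 and Clec4g 773 CPM as the most abundant. As a mean over libraries the list in HSC was 56.8% of its level in EC. Notch1 in HSC was 83.4% of its level in EC, Dll4 61.4%, Notch4 57.9% and Dll1 55.0%. Notch4, Dll4 and Dll1 stand within a few points of the list, while Jag1 at 249.95% and Hes1 at 98.7% stand above it. What part of the HSC levels is RNA of EC was not tested.

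HSC with at most 0.1% of their UMIs from the EC list were few, 19, 3, 18 and 16 cells. In them Notch1 was at 105, 91.5, 151 and 100.1 CPM, below the level of all HSC in every library. Notch4 had 0 UMIs in all 4 libraries, below the limit of 3 UMIs, and Dll4 had 4, 0, 0 and 1 UMIs. Notch3 had 7, 0, 1 and 6 UMIs. Hes1 was at 399, 183, 168 and 319 CPM. Jag1 was at 111, 45.8, 16.8 and 50.04 CPM, highest in WT, from 17, 2, 1 and 8 UMIs. In HSC low in EC RNA, Notch1 and Hes1 thus had at least 3 UMIs in each library, though YAPKO has 3 such cells, and Jag1 in WT and DKO only.

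Within the 3 largest HSC subclusters some of these differences return and others do not. Hes1 was at 198, 187, 196 and 436 CPM in the subcluster high in EC genes, 194, 248, 234 and 377 CPM in the one led by HSC genes and 185, 148, 249 and 285 CPM in the one with KC genes. DKO was the highest library in each. Notch1 was at 306, 274, 455 and 266 CPM in the subcluster high in EC genes, 228, 198, 461 and 314 CPM in the one led by HSC genes and 185, 186, 395 and 188 CPM in the one with KC genes, with TAZKO highest in each. Dll4 in the subcluster with KC genes was at 22.1, 53.9, 25.1 and 22.0 CPM, from 8, 20, 11 and 15 UMIs. It was thus not below WT in YAPKO or TAZKO there. In the subcluster high in EC genes Dll4 was at 101.6, 76.4, 102.5 and 75.4 CPM. In the one led by HSC genes it was at 65.9, 34.1, 56.8 and 56.8 CPM, the only 1 of these 3 where TAZKO was below WT. An alternative chosen after seeing the data left out the subcluster high in EC genes, and the Notch1 ratio was then 0.95 in TAZKO and 0.27 in DKO. With the subcluster with KC genes left out as well, the DKO ratio was 0.54 for Notch1 and -0.15 for Dll4, and YAPKO had too few cells. Notch2 in HSC of DKO, with a ratio of 0.63 (0.03 to 1.22) in all HSC, turned to -0.17 there and to -0.09 with the top 8% of Scrublet scores left out. What part the make-up of the class has in the HSC ratios was not tested beyond these alternatives.

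In BEC the EC list stood at 22.8% of its level in EC. Notch1 stood at 25.2%, Notch4 at 29.9%, Dll4 at 19.5% and Dll1 at 31.5%. Jag1 stood at 416% and Hes1 at 187%, far above the list. In BEC with at most 0.1% of UMIs from the list (23, 28, 10 and 5 cells), Jag1 was at 62.9, 118, 57.5 and 43.8 CPM, from 12, 44, 5 and 2 UMIs, and Hes1 at 765, 352, 713 and 547 CPM. Dll4 had 0 UMIs there in every library, below the limit of 3 UMIs, and Notch1 was at 15.7, 8.07, 11.5 and 0 CPM, from 3, 3, 1 and 0 UMIs. In BEC low in EC RNA the target Hes1 was thus found in every library, and the ligand Jag1 in WT, YAPKO and TAZKO, with DKO below the limit.

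KC held the 8 EC genes, all detected with 0 at 0, at 686, 681, 1129 and 655 CPM, 5.31% of EC, with Cdh5 460.4, Cdh5 502, Cdh5 818 and Cdh5 433 CPM as the most abundant. Against this Notch1 stood at 11.9%, Hes1 at 59.2%, Dll4 at 1.08% and Notch4 at 1.35%. Dll4 and Notch4 are below the list and Notch1 and Hes1 above it. Cdh5 made up most of the list in KC, whereas Clec4g or Ptprb was the most abundant of it in EC. The list in KC thus need not measure RNA of EC, and the source of this Cdh5 was not tested. The list was highest in TAZKO, as was Notch1, and its part was not tested. In KC with at most 0.1% of UMIs from the list, Notch1 was at 31.2, 31.4, 53.4 and 27.6 CPM, and TAZKO remained the highest library. That limit kept 80.9, 83.9, 50.5 and 83.7% of KC, so it left out far more KC in TAZKO, and it acts mostly on Cdh5.

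**Figure D4:**
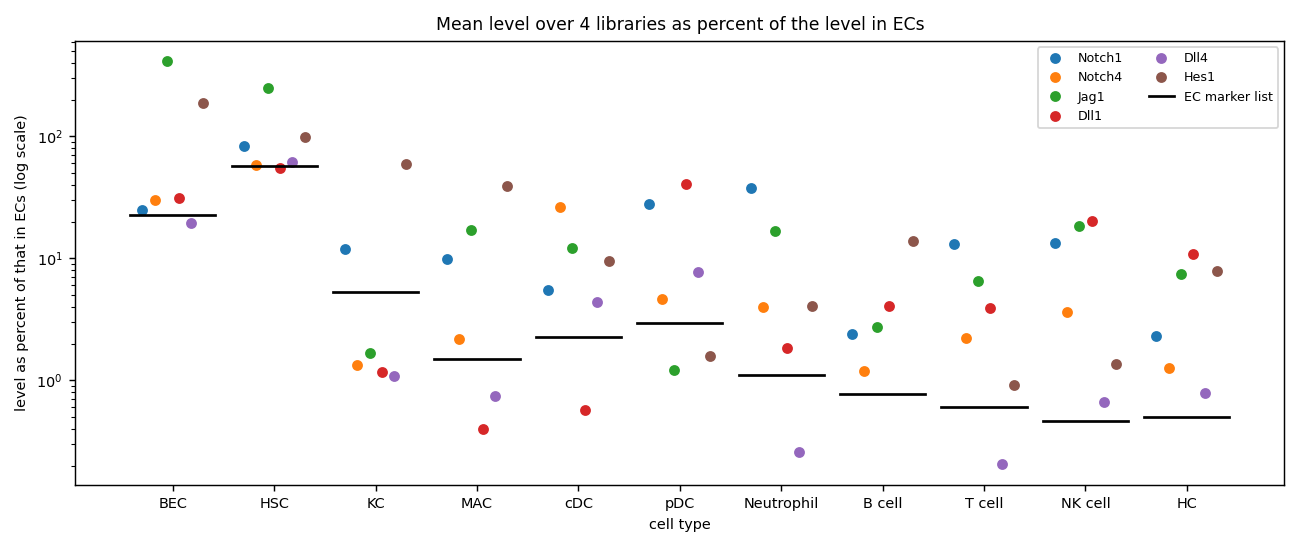
Level of 6 of the genes in the other cell types as a percent of its level in EC, beside the same percent for the EC marker list. Points above the line keep a greater share of their EC level than the list does.

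The EC of the sinusoids run from the portal to the central vein, and the genes follow that axis in different ways. Subclusters with markers of periportal EC (698, 509, 627 and 478 cells) and of pericentral EC (597, 478, 500 and 533 cells) were compared within each library. A gene was counted where it lay on the same side in all 4 libraries, a rule set after seeing the data. Of 7 genes with enough UMIs, 4 were higher in periportal EC, beside 13.3% of 12311 genes, and 1 was higher in pericentral EC, beside 14.1% of all genes. The median log2 ratio was 0.24 for the 7 genes and 0.00 for all genes.

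Dll4 stood at 114, 100.1, 138 and 106 CPM in periportal EC and 68.9, 51.3, 66.3 and 47.6 CPM in pericentral EC, with log2 ratios of 0.73, 0.96, 1.06 and 1.15. Jag1 stood at 16.6, 25.4, 29.1 and 26.0 CPM against 10.7, 13.4, 14.2 and 10.1 CPM, with log2 ratios of 0.64, 0.92, 1.03 and 1.37. Both ligands are thus higher on the portal side in each mouse, with the least difference in WT. The large-vessel marker list was at 653.3 CPM in the periportal and 467.6 CPM in the pericentral subcluster, against 1824.5 CPM in large-vessel EC. Both ligands are highest in large-vessel EC, and what part RNA or cells of that type have in the zone differences was not tested. Hes1 stood at 358, 255, 294 and 407 CPM against 129.9, 134, 164 and 259 CPM, with log2 ratios of 1.46, 0.93, 0.84 and 0.65. This target is also higher on the portal side, with the greatest difference in WT. Notch1 stood at 338, 291, 515 and 324 CPM against 288, 227, 448 and 289 CPM, with log2 ratios of 0.23, 0.36, 0.20 and 0.16, a small difference in the same direction.

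Dll1 was the exception, with 5.09, 7.81, 29.1 and 13.5 CPM in periportal and 17.8, 11.997, 43.1 and 15.8 CPM in pericentral EC. The log2 ratios were -1.80, -0.62, -0.57 and -0.22, and the intervals in YAPKO and DKO included 0. The 2 Delta-type ligands thus lie towards opposite ends of the sinusoid, though the counts in those 2 libraries leave the Dll1 difference unsure. Against WT, Dll1 in periportal EC was at 0.62, 2.51 and 1.41 and in pericentral EC at -0.57, 1.28 and -0.17. Hes1 in pericentral EC had ratios to WT of 0.04 (-0.14 to 0.22), 0.34 (0.14 to 0.54) and 1.00 (0.84 to 1.16). In periportal EC its ratios were -0.49 (-0.61 to -0.38), -0.29 (-0.41 to -0.16) and 0.18 (0.07 to 0.30). The higher Hes1 of DKO was thus greater in pericentral EC, though the difference between the zones was not tested. The all-gene medians were 0.05, 0.16 and 0.05 in periportal and 0.02, 0.17 and 0.03 in pericentral EC.

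Of the other genes of the pathway, 6 of 29 were higher in periportal EC in all 4 libraries, beside 13.3% of all genes. In pericentral EC 5 were higher, beside 14.1% of all genes, and the median log2 ratio was 0.08. Higher on the portal side were Furin, Psen2, Mfng, Mib1, Maml1 and Dtx3, and Lfng was among those higher on the central side. Lfng, a glycosyltransferase that changes which ligands a Notch receptor answers, stood at 17.7, 8.05, 22.1 and 16.0 CPM in periportal EC. In pericentral EC it stood at 62.4, 58.8, 93.4 and 83.0 CPM, with log2 ratios of -1.82, -2.87, -2.08 and -2.37. Lfng thus has more RNA where Dll4 and Jag1 have less.

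**Figure D5:**
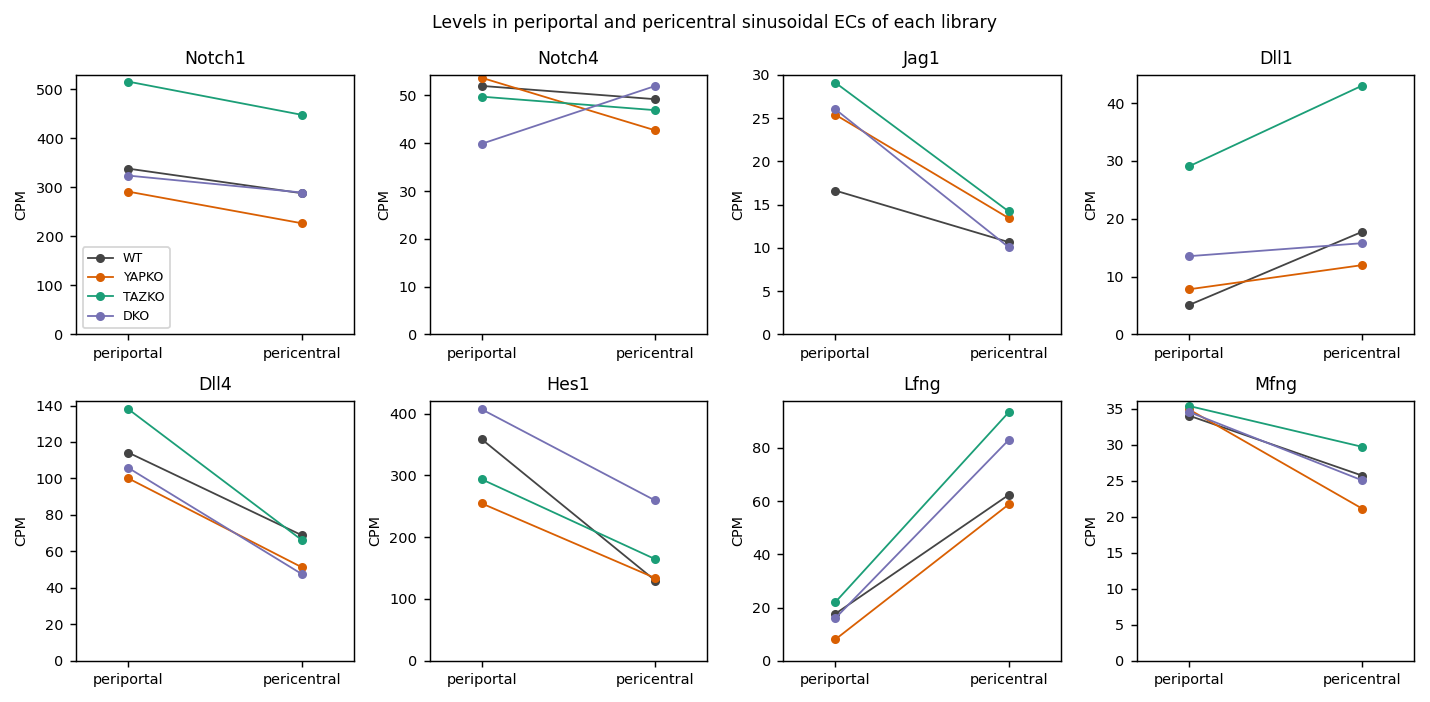
Levels in periportal and pericentral EC by library, with 1 panel for each gene. Dll4, Jag1, Hes1 and Notch1 are higher in periportal EC and Dll1 in pericentral EC in all 4 libraries.

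How many of the genes differed from WT at least 2-fold was counted among those with at least 20 UMIs in the 2 libraries, with 1 UMI added to each count. In HC of YAPKO this was 1 of 6 (Notch1), where 11.2% of all genes did so. In HC of TAZKO it was 4 of 7 (Notch1, Notch2, Jag1 and Dll4), against 27% of all genes, and in HC of DKO 2 of 6 (Notch1 and Notch2), against 18.8%. The Dll4 ratio, part of the TAZKO count, changed sign in 6 alternatives. All were above WT, and so was the median of all genes: the medians of the members were 0.85, 1.20 and 0.73, beside 0.43, 0.63 and 0.47 for all genes. With mitochondrial and the 50 most abundant genes left out of the scaling, 0 of 6 passed in DKO. The other genes of the pathway gave 1 of 25, 8 of 26 and 4 of 27, all above WT, with medians of 0.56, 0.83 and 0.39. Among them Aph1b, a subunit of gamma-secretase, was at 0.740, 1.05, 3.90 and 3.01 CPM, with log2 ratios of 0.51 (-0.58 to 1.63), 2.40 (1.53 to 3.36) and 2.02 (1.21 to 2.95). Dtx3, of the Deltex family, was at 0.528, 1.17, 0.851 and 1.14 CPM, with log2 ratios of 1.15 (-0.01 to 2.41), 0.69 (-0.65 to 2.06) and 1.11 (0.07 to 2.29). Psen2, the catalytic subunit, was at 395, 522, 444 and 445 CPM.

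In EC the count was 0 of 7 in YAPKO, beside 6.76% of all genes, 1 of 7 in TAZKO (Dll1), beside 9.32%, and 0 of 8 in DKO, beside 8.17%. The medians of the members were -0.30, 0.56 and 0.31, and of all genes 0.03, 0.17 and 0.04. The other pathway genes gave 0 of 29, 0 of 30 and 1 of 29, with medians of 0.07, 0.31 and 0.18. The genes with the highest level of their role include Mib1, the ligase that makes ligands active, at 155, 119, 171 and 127 CPM. Numb, an inhibitor of Notch, was at 204, 236, 189.7 and 232 CPM, and Nrarp, a target that feeds back on Notch, at 20.7, 21.8, 27.6 and 25.8 CPM. Maml2, a coactivator of RBPJ, was at 40.5, 37.2, 59.0 and 49.9 CPM. TAZKO has the highest Mib1, Maml2 and Nrarp of the 4 libraries, and YAPKO the highest Numb.

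In HSC the count was 0 of 7 in YAPKO, beside 5.98% of all genes. It was 1 of 8 in TAZKO (Dll1), beside 10.6%, and 2 of 8 in DKO (Notch3 and Dll1), beside 8.02%. Without the HSC subcluster high in EC genes the DKO count was 0 of 7, and without that and the one with KC genes it was 0 of 7 in TAZKO and in DKO. The medians were 0.25, 0.57 and 0.50 for the members and 0.03, 0.19 and 0.05 for all genes. For the other pathway genes they were 0.14, 0.40 and 0.13, with 1, 2 and 2 of 32 past 2-fold, of which Nrarp in DKO was below WT. Nrarp, a target of Notch, stood at 19.6, 21.0, 13.9 and 8.89 CPM, with log2 ratios of 0.10 (-0.61 to 0.79), -0.50 (-1.38 to 0.32) and -1.14 (-2.12 to -0.25), so it was lowest in the library where Hes1 in HSC was highest. Heyl, a target of Notch known from mural cells, stood at 39.7, 20.3, 48.6 and 52.1 CPM, lowest in YAPKO.

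In KC the count was 0 of 4 in each knockout library, beside 4.87%, 15.5% and 7.85% of all genes. The medians were -0.10, 0.47 and -0.01 for the members, -0.11, 0.50 and 0.07 for the other pathway genes and -0.06, 0.25 and 0.03 for all genes. Of 31 other pathway genes 0, 3 and 1 passed. Adam10, the protease that makes the outer cut in the receptor, was at 269.7, 249.7, 364 and 256 CPM, and Lfng at 82.8, 68.9, 155 and 73.3 CPM, both highest in TAZKO. Neurl1b, a ligase acting on ligands, was at 1.20, 1.43, 3.46 and 4.39 CPM, with log2 ratios of 0.26 (-1.12 to 1.73), 1.53 (0.30 to 2.92) and 1.88 (0.71 to 3.22).

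In MAC 1 of 3 passed in YAPKO (Hes1, below WT), beside 8.75% of all genes. The count was 0 of 3 in TAZKO, beside 13.3%, and 0 of 3 in DKO, beside 9.54%. The medians were -0.01, 0.23 and -0.18 for the members, 0.07, 0.45 and 0.13 for the other pathway genes and -0.09, 0.21 and 0.03 for all genes. The other pathway genes gave 0 of 28, 2 of 22 and 2 of 28. Rbpj, which carries the Notch signal in the nucleus, was at 59.9, 64.4, 109 and 66.6 CPM. Poglut1, which adds glucose to Notch receptors, was at 9.55, 12.5, 22.9 and 22.9 CPM, with log2 ratios of 0.39 (-0.54 to 1.46), 1.27 (0.07 to 2.52) and 1.26 (0.34 to 2.32). Hes1 thus stood lower in MAC of YAPKO while Rbpj was near its WT level there.

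In cDC the count was 0 of 4 in each knockout library, beside 6.94%, 12.1% and 9.19% of all genes. The medians were 0.22, 0.46 and 0.13 for the members, 0.13, 0.33 and 0.31 for the other pathway genes and 0.02, 0.15 and 0.08 for all genes. The other pathway genes gave 1 of 25, 4 of 24 and 1 of 28. Ncstn, nicastrin of gamma-secretase, was at 15.001, 33.1, 41.9 and 28.4 CPM, with log2 ratios of 1.14 (0.39 to 1.96), 1.48 (0.68 to 2.35) and 0.92 (0.15 to 1.76). Rbpj was at 185, 152, 298 and 216 CPM and Dtx1, a target, at 5.83, 3.59, 6.57 and 7.62 CPM.

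In pDC the count was 0 of 3 in YAPKO, beside 5.48% of all genes. It was 1 of 3 in TAZKO, beside 13.4%, and 1 of 4 in DKO, beside 9.81%, and the gene was Notch3 in both. The medians were 0.62, 0.76 and 0.26 for the members, 0.11, 0.10 and 0.16 for the other pathway genes and 0.03, 0.03 and 0.04 for all genes. The other pathway genes gave 1 of 19, 5 of 21 and 5 of 24, of which 1 in DKO was below WT. Poglut1 was past 2-fold in all 3 libraries, at 5.56, 20.03, 20.6 and 15.01 CPM from 3, 22, 25 and 29 UMIs, with log2 ratios of 1.85 (0.11 to 4.23), 1.89 (0.18 to 4.26) and 1.43 (-0.26 to 3.79). Maml1, a coactivator of RBPJ, was at 3.71, 10.9, 20.6 and 16.0 CPM from 2, 12, 25 and 31 UMIs, with WT below the limit of 3 UMIs and YAPKO with too few UMIs for a call, and with log2 ratios of 1.56 (-0.61 to 4.76), 2.48 (0.47 to 5.60) and 2.11 (0.14 to 5.22). Psen2 was at 25.9, 39.2, 57.8 and 61.1 CPM with log2 ratios of 0.59 (-0.30 to 1.58), 1.15 (0.31 to 2.10) and 1.24 (0.43 to 2.15). WT was the lowest library for all 3.

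The design crosses the loss of YAP with the loss of TAZ, so the 4 libraries can also be read by YAP status. A gene was counted as separated where YAPKO and DKO were both at least 1.5-fold above or below both of WT and TAZKO. In HC 0 of 7 were separated, beside 4.43% of all genes, and in EC 0 of 7, beside 4.94%. In HSC it was 0 of 8, beside 3.05%, and in KC 0 of 4, beside 2.36%. In MAC it was 0 of 3, beside 4.47%, in cDC 0 of 4, beside 2.85%, and in pDC 0 of 3, beside 1.5%. In EC, Dll4 was lower in YAPKO and DKO than in WT and TAZKO, but by less than that gap. Notch1 and Dll1 in EC were highest in TAZKO, and Hes1 in EC and HSC was highest in DKO. So few genes are counted in each type that a count of 0 is near the share of all genes.

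Other genes overlap some of the 10 on the chromosome, which a 3' count cannot fully separate on the same strand. Gm42819 and Gm42820 lie within Notch2 on its strand, and so do the microRNA genes Mir6996 within Notch1 and Mir6941 within Jag2. On the other strand, 0610009E02Rik and Gm13568 lie at the 3' end of Notch1, Gm17276 at that of Notch3, Gm20462 within Notch4 and Gm14207 at the start of Dll4.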

How the data were processed

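Single-cell RNA was measured in 4 liver libraries. The files the authors deposited hold UMI counts per gene and barcode, not normalized, made with Cell Ranger 6.0.1 on mm10 per the submitters' processing notes. The headers of the matrices name another version of Cell Ranger. The 10 genes and the lists were chosen with earlier results of these data known, and the cDC split, the limits of 0.6 and 0.1%, the zone rule and the added alternatives after seeing the data. Genes were matched by symbol.

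Barcodes with 500 to 6000 genes and at most 10% mitochondrial UMIs were kept, more cells than in the study. The paper states its limits of 500 and 6000 in transcripts, and the reading as UMIs was run as an alternative. Counts were scaled per cell and logged, and 2000 variable genes without the pathway gave 20 principal components after regressing out cell cycle scores. These were corrected by library with a Harmony-type method, joined to 20 neighbours and clustered by Louvain (resolution 0.4; subclusters 15 components, 0.3). A cluster took the name of its highest marker list, unless the list of an unrelated lineage scored over 0.6 of that one or too few of its own markers stood out. Doublets were kept, and leaving out the top 8% of Scrublet scores was an alternative.

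UMIs were summed per library and type and scaled to 1e+06 UMIs (CPM). Levels have exact Poisson and ratios exact conditional binomial 95% intervals, computed for types with at least 50 cells. With 1 library per genotype no test between genotypes was made. Calls past 2-fold need 20 UMIs and add 1 UMI. Calls by YAP status and by zone need 40 UMIs over the libraries. Shares of cells were thinned to 1000 UMIs, with 2000 and no thinning as alternatives. Likeness is the Pearson r of log2 of CPM plus 10, over types and libraries with at least 20 cells, for genes with at least 200 UMIs, searched among genes that reach 50 CPM. Other pathway genes are named where at least 2 knockout libraries passed 2-fold in the same direction or where the level is the highest of its role. Nrarp in HSC, past 2-fold in DKO only, is named outside this rule, and so are the genes named for the EC zones. The calculations were checked on simulated data. Python 3.11.15, numpy 2.4.6, scipy 1.17.1, pandas 2.3.3, scikit-learn 1.9.0, igraph 0.11.9 and scanpy 1.11.5 were used.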

Additional observations from a re-analysis of the deposited data

Results flagged for a closer look

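Notch1 in YAPKO lay on opposite sides of WT in 2 cell types. Its log2 ratio was 1.41 in HC, where the median of all genes was 0.43, and -0.30 in EC, where that median was 0.03. The 2 ratios differ by 1.71, and the difference was not tested.

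Hes1 in DKO likewise lay above WT in HC, with a log2 ratio of 0.73, and below WT in MAC, with -0.30. The MAC interval runs from -0.59 to -0.000502, so it barely leaves out 0. The medians of all genes were 0.47 and 0.03. The 2 ratios differ by 1.03, and the difference was not tested. In HC the ratio turned to -0.21 with limits of 500 to 6000 UMIs and to -0.71 with cells selected by markers.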

How the results depend on the processing

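Under the alternatives, 45 ratios to WT with an interval that leaves out 0 were computed 356 more times. The sign changed in 13 of these values, 6 of them for Dll4 in HC of TAZKO. Over all 107 ratios, with or without such an interval, it changed in 62 of 814 values. No paired analysis was possible because each genotype has 1 library, so replicate 1 is the only number that the groups share. The cause of each change below was not tested.

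With limits of 500 to 6000 UMIs in place of genes, the count of genes past 2-fold was 2 of 3 in HC of YAPKO (Notch1 and Notch2; 1 in the main result), beside 28.1% of all genes. In HC of DKO it was 1 of 3 (Notch2; otherwise 2), beside 37.0% of all genes. In KC it was 2 of 5 in TAZKO (Notch2 and Dll4), beside 19.8%, and 1 of 3 in DKO (Notch2), beside 8.09%, where the main counts are 0. The Dll4 ratio in HC of TAZKO, 1.35 in the main result, was -0.61.

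With up to 20% mitochondrial UMIs that Dll4 ratio was -0.88. The count was 1 of 4 in MAC of DKO (Hey1), beside 9.96% of all genes, and 1 of 4 in cDC of TAZKO (Notch1), beside 12.4%, in place of 0. Without the correction by library the Dll4 ratio was -1.27. The count was then 1 of 8 in EC of DKO (Hey1), 1 of 5 in MAC of DKO (Hey1) and 1 of 4 in cDC of TAZKO (Notch1), in place of 0, beside 9.18, 12.6 and 12.8% of all genes. With the top 8% of Scrublet scores left out the Dll4 ratio was -1.29, and the count in HSC of DKO was 1 of 7 (Notch3) in place of 2, beside 7.62% of all genes.

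At a resolution of 0.8 the count was 1 of 8 in KC of TAZKO (Dll1), beside 13.2% of all genes. It was 2 of 8 in KC of DKO (Jag1 and Dll1), beside 8.28%. In MAC of DKO it was 1 of 3 (Notch1, below WT), beside 11.5%. The main count is 0 in each. With cells selected by markers the count was 2 of 3 in HC of TAZKO, 0 of 2 in HC of DKO and 1 of 4 in KC of TAZKO (Notch1), beside 51.1, 29.2 and 17.6% of all genes. The Dll4 ratio was then -1.63. In a ranking that leaves out large-vessel EC, 7 genes had their highest mean level in EC in that selection, against 4 in the main result, and fewer cell types had enough cells to be ranked.

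With mitochondrial and the 50 most abundant genes left out of the scaling, the count in HC of DKO was 0 of 6, beside 13.4% of all genes. With the mean over cells it was 4 of 6 in HC of YAPKO (Notch1, Notch2, Jag1 and Dll1), 1 of 8 in HSC of DKO (Notch3) and 1 of 4 in cDC of YAPKO (Hes1), beside 28.9, 10.3 and 8.22% of all genes. With at least 50 UMIs it was 2 of 4 in HC of TAZKO, 0 of 6 in HSC of TAZKO, 0 of 6 in HSC of DKO and 0 of 2 in pDC of TAZKO, beside 23.5, 6.87, 4.66 and 8.34%, and here the construction shows why, since genes under the limit are not counted. In cells with at most 0.1% of UMIs from the EC list, an alternative chosen after seeing the data, the Dll4 ratio was -1.28. The HSC were also counted after seeing the data without the subcluster high in EC genes, and the count was 0 of 7 in DKO, beside 7.71% of all genes. Without that and the subcluster with KC genes it was 0 of 7 in DKO, beside 7.71%, and 0 of 7 in TAZKO, beside 10.6%.

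The count by YAP status was 0 in every alternative that gave a value. The counts for EC zones were 4 and 1 under the 3 alternatives run for them, which were added after seeing the data, as were the HC of the deep cluster alone and the periportal and pericentral EC alone, where the counts past 2-fold were those of the main result. With 1 added in place of 10, 18 of the 27 most alike genes were shared. HSC gave no value with 500 to 6000 UMIs, 20% mitochondrial UMIs, no correction or a resolution of 0.8, where their cluster stayed without a name, nor with cells selected by markers. The limits of 500 to 6000 UMIs and the selection by markers also gave no value for MAC in at least 1 library, cDC and pDC.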
